A study of Mus musculus with 2 samples.

Results

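Cytosolic ribosomal protein genes encode the proteins of the ribosomes that work in the cytosol. They were chosen by symbol and type: genes annotated as protein coding whose symbol is Rpl or Rps with a number and, in some, a further letter or number, plus Rpsa, Rplp0, Rplp1 and Rplp2. The rule found 83 of 55536 annotated genes, 48 of the large subunit, 32 of the small subunit and 3 of the P stalk. Genes such as Fau, Rack1 and Rpl36al, whose products are also part of the ribosome, have other kinds of symbol and are not members. Reads were seen for 80 members, which took up 573 of the 63014 transcript rows of replicate 1 and 561 of the 67079 rows of replicate 2.

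Whole adrenal glands came from B6CASTF1/J males, a hybrid of a C57BL/6J and a CAST/EiJ parent, at an age of 36 days. Total RNA was read as long cDNA molecules in 2 libraries of a single group, replicate 1 and replicate 2, and no treatment or genotype was compared. The labels give the 2 libraries the same animal number in one place and different numbers in another. Differences between them are therefore differences between these libraries only, and may be partly technical.

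The libraries held 452489 and 463210 endogenous reads, with spike-ins left out. Genes that mark the steroid-producing cortex made up 65929 and 53505 CPM (reads per 1000000 endogenous reads) over 7 genes, all with reads, and chromaffin cell genes 10478 and 15399 CPM over 5. Replicate 2 also held reads of genes that mark pancreas and liver. Of 22 pancreatic acinar genes, 19 had 0 reads in replicate 1 and none was at 0 in replicate 2, with 40 and 4574 reads in all. Of 8 liver genes, 6 had 0 reads in replicate 1, with 3 and 305 reads in all. Ribosomal protein mRNA is made by every cell, so the part of it in replicate 2 that comes from pancreas or liver cells cannot be told apart here. In whole tissue, more cells of a type and more RNA per cell cannot be told apart either.

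As background, a ribosome holds most of its proteins in a single copy, the small subunit reading the mRNA and the large subunit joining amino acids. The P stalk, built from Rplp0 with Rplp1 and Rplp2, draws the elongation factors to the large subunit. Ribosomal protein mRNAs are among the most abundant of a cell and are known for a run of pyrimidines at their very start, the terminal oligopyrimidine tract, through which their translation is regulated together. Their genes are also known for leaving many processed pseudogenes, copies of the spliced mRNA put back into the genome.

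The tract can be read in the sequence around the annotated start. Each line runs from 20 bases before the RefSeq start (GRCm38.p6) to 20 bases after it. The run of C and T letters is in capitals. The 5 members shown had levels above the median of the members and were chosen because such a run crosses their start. Positions are chr2:39005112-39005151, minus strand, for Rpl35; chr11:114668560-114668599, plus strand, for Rpl38; chr3:90213629-90213668, minus strand, for Rps27; chr7:3704021-3704060, plus strand, for Rps9; and chr7:141447631-141447670, plus strand, for Rplp2.
Rpl35: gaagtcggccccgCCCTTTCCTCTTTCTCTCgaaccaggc
Rpl38: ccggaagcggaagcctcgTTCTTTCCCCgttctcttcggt
Rps27: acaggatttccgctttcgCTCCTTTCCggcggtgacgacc
Rps9: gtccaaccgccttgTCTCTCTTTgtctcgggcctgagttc
Rplp2: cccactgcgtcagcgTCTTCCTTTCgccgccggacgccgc
RefSeq promoter windows of 300 bases were at hand for 63 of the 83 members, 75 windows in all. A run of at least 8 C or T letters, between 10 bases before and 30 after the start, was in 28 of the 75 (37.3%), against 14.4% of all 32851 windows. The letters CTTTC on the gene's strand stood in the same stretch in 24% of member windows and 4.85% of all. The letters CCGGAAG, on either strand anywhere in the window, were in 36% of member windows and 8.86% of all. TATAAA, on the gene's strand from 40 to 20 bases before the start, was in 1.33% and 1.87%. These are matches of letters, with no measurement of binding or translation in these data.

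Summed over the members, ribosomal protein mRNA was 16287 reads in replicate 1 and 20804 in replicate 2. That was 3.60% (Wilson 95% interval 3.55 to 3.65) and 4.49% (4.43 to 4.55) of endogenous reads, or 40453 ± 6306 CPM (SD, n = 2). These intervals, like all those below, cover counting error only. Each long read stands for 1 cDNA, so levels were not divided by transcript length. The large subunit genes summed to 22789 ± 3403 CPM, the small subunit genes to 14952 ± 2403 CPM and the P stalk to 2712 ± 500.3 CPM (SD, n = 2). The 10 most abundant members made up 31.5% and 31.1% of member reads.

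Of the P stalk, Rplp0 had 600 and 689 reads (1326 and 1487 CPM). Rplp1 had 252 and 433 reads (557 and 935 CPM), and Rplp2 had 215 and 298 reads (475 and 643 CPM). Rplp0 was the highest of the 3, with no overlap between its levels and those of the others.

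In the large subunit, Rpl41 had 811 and 1195 reads (1792 and 2580 CPM), 790 and 1176 of them full-length as defined further on. Rpl41 encodes the smallest ribosomal protein. Its coding sequence is shown because it is the shortest among the members, 78 bases, with start and stop codon in capitals, on the minus strand of chr10, from 128548387 to 128548960 including introns.
Rpl41: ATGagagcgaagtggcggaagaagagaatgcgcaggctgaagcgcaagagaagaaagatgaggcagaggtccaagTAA
Other large subunit genes of high level were Rpl13 (1032 and 1183 CPM), Rpl13a (946 and 1164 CPM), Rpl35 (844 and 946 CPM), Rpl4 (930 and 835 CPM), Rpl38 (610 and 954 CPM), Rpl3 (871 and 626 CPM), Rpl6 (672 and 779 CPM), Rpl19 (606 and 799 CPM) and Rpl26 (608 and 775 CPM). From Rpl35 down, the ranges of neighbours overlapped.

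In the small subunit, Rps14, a protein of the platform of the small subunit, was highest with 457 and 537 reads (1010 and 1159 CPM), followed by Rps28 with 355 and 458 reads (785 and 989 CPM). The small subunit genes lay closer together than those of the large subunit: between the 10th and the 90th percentile their mean levels ran from 235 to 655 CPM, a ratio of 2.79, against 95.6 to 890 CPM in the large subunit, a ratio of 9.31. With reads at pseudogene copies added, as described below, the ratios were 3.92 and 4.97. No test of this spread was made. Over the 80 members seen, the median of the mean levels was 448 CPM.

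The lowest members were nearly all of the large subunit. Rpl21 had 4 and 7 reads (8.84 and 15.1 CPM), Rpl17 13 and 11 reads (28.7 and 23.7 CPM), Rpl10 12 and 20 reads (26.5 and 43.2 CPM) and Rpl30 23 and 24 reads (50.8 and 51.8 CPM). All 4 encode core proteins of the large subunit. Rpl12 had 37 and 49 reads, Rpl7a 48 and 42 and Rpl7l1 49 and 47. The lowest small subunit gene was Rps12, with 43 and 83 reads (95.0 and 179 CPM). The order was alike in both libraries: across the 80 genes the log2 levels had a Pearson r of 0.98 and a Spearman rho of 0.97, a description only, since genes are not independent replicates. The plot of levels by gene shows both libraries side by side.

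**Figure D1:**
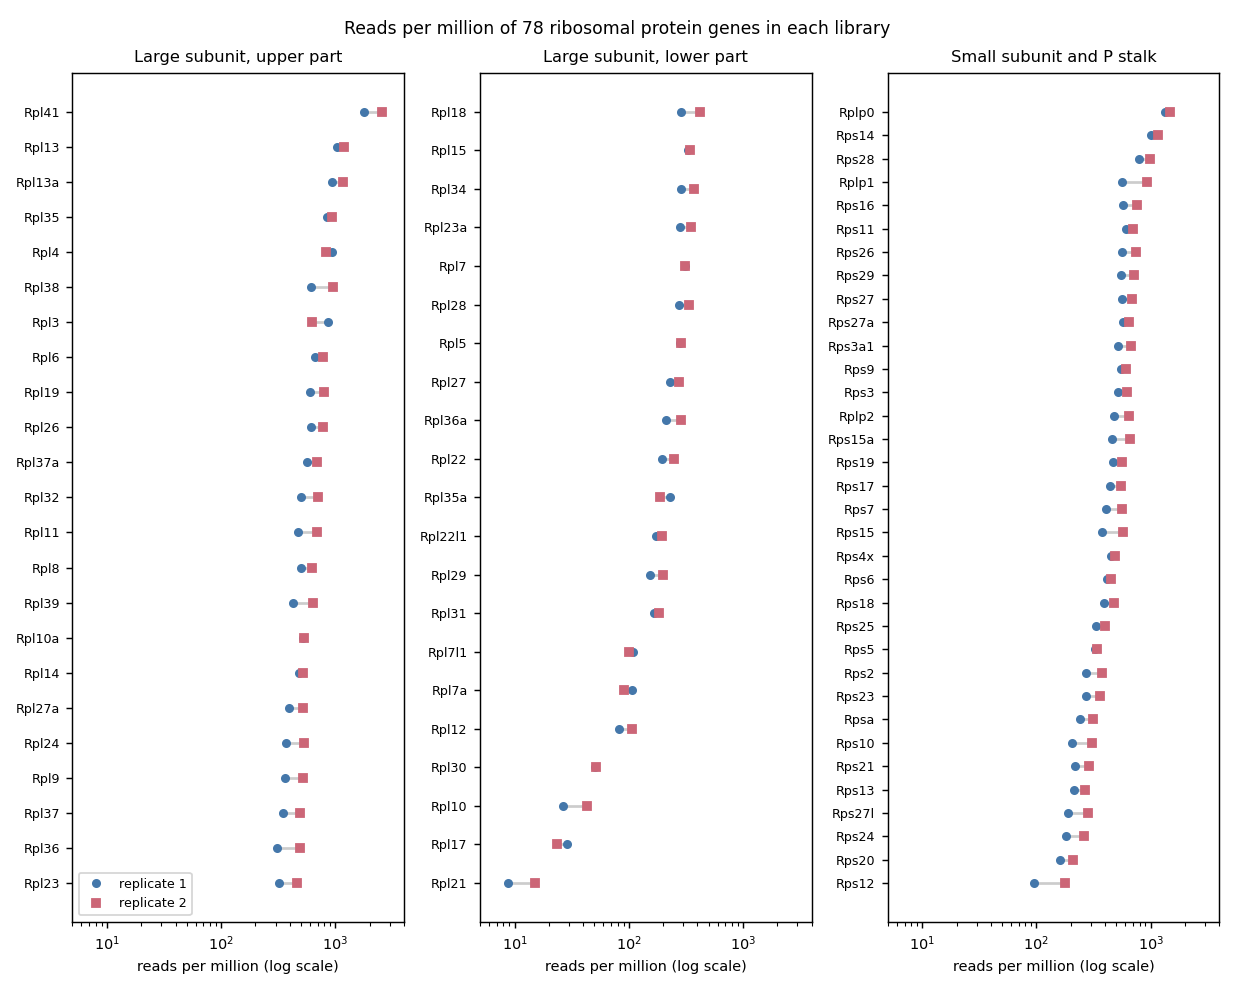
CPM (horizontal, log scale) of 78 members, one row a gene, with a circle for replicate 1 and a square for replicate 2. Levels ran from 8.84 CPM for Rpl21 in replicate 1 to 2580 CPM for Rpl41 in replicate 2, and most squares lie to the right of their circles.

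For several of the low genes, reads of nearly the same sequence had been counted at pseudogenes. Pseudogenes were taken as copies of a member when at least 80% of their bases matched over at least 50% of its coding sequence. This assigned 1736 annotated pseudogenes to members, of which 180 had reads. They held 3423 reads in replicate 1 and 3871 in replicate 2, so that 17.4% (16.8 to 17.9) and 15.7% (15.2 to 16.1) of all reads at members and copies together were counted at copies. The reads lay at few, very similar copies: 125 of the 180 matched at 98% or more, and these held 98.4% and 98.3% of the copy reads. Whether such reads were made at the pseudogene, or at the gene and placed at the pseudogene, was not tested. Each member's own count is therefore uncertain by up to the reads at its copies.

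Rpl21 was the extreme case, with 4 and 7 reads at the gene and 244 and 309 at 9 copies. The most-read were Rpl21-ps15 on chromosome X, 3 bases from the 483 coding bases of Rpl21, with 103 and 192 reads, and Gm13370 on chromosome 2, 2 bases away, with 107 and 81 reads. Gene and copies together came to 615 ± 94.8 CPM (SD, n = 2) in place of 8.84 and 15.1 CPM at the gene alone. Rpl17 had 101 and 96 reads at copies and came to 241 ± 14.8 CPM, and Rpl30 had 66 and 85 and came to 216 ± 27.3 CPM. Rpl10 had 1 copy with reads and, with copies counted, was the lowest at 35.9 ± 13.3 CPM. More reads at copies than at the gene in both libraries were found for 9 members: Rpl21, Rpl17, Rpl35a, Rpl30, Rps2, Rpl37, Rps6, Rpl27 and Rps13. No copy with reads was found for 11 of the 80.

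Rpl35a shows how small the difference can be. The gene, on chromosome 16, had 104 and 87 reads and the copy Gm10243, an intronless pseudogene at chr6:48523518-48523850, had 226 and 277. Over all 333 coding bases they differ once, by G156A, counted from the first base of the start codon, with the base of Rpl35a first. The lines show 20 bases on either side in the mm10 annotation, with the differing base in capitals.
Rpl35a: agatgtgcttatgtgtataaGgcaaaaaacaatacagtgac
Gm10243: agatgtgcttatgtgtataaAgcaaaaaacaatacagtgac
These animals, all male, carry a CAST/EiJ as well as a C57BL/6J allele of each autosomal gene. The alleles of Rpl35a at this base were not looked at. Rpl5, Rps29, Rpl15, Rpl27, Rpl28 and Rpl31 have a well-read copy with no difference over the whole coding sequence.

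Copies did not all follow their gene between the libraries. Of 66 copies with at least 10 reads, 45 were higher in replicate 2, and 1 was called different, against 3.16% of all 8135 genes tested (Fisher's exact test, adjusted p under 0.05 by Benjamini-Hochberg over all genes and at least a 2-fold difference). It was Gm14303 on chromosome 2, whose 171 bases equal the coding sequence of Rps29. Gm14303 had 217 reads in replicate 1 and 79 in replicate 2, lower in replicate 2 by a log2 ratio of -1.49 (adjusted p 7.55e-15, exact test). Rps29 itself, which encodes a zinc-binding small subunit protein, had 249 and 331 reads. The share of reads at the copy was 46.6% (42.1 to 51.1) in replicate 1 and 19.3% (15.7 to 23.4) in replicate 2. Rps29 and its copy together had 466 and 410 reads, so the direction for the pair was the opposite of that for the gene alone.

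**Figure D2:**
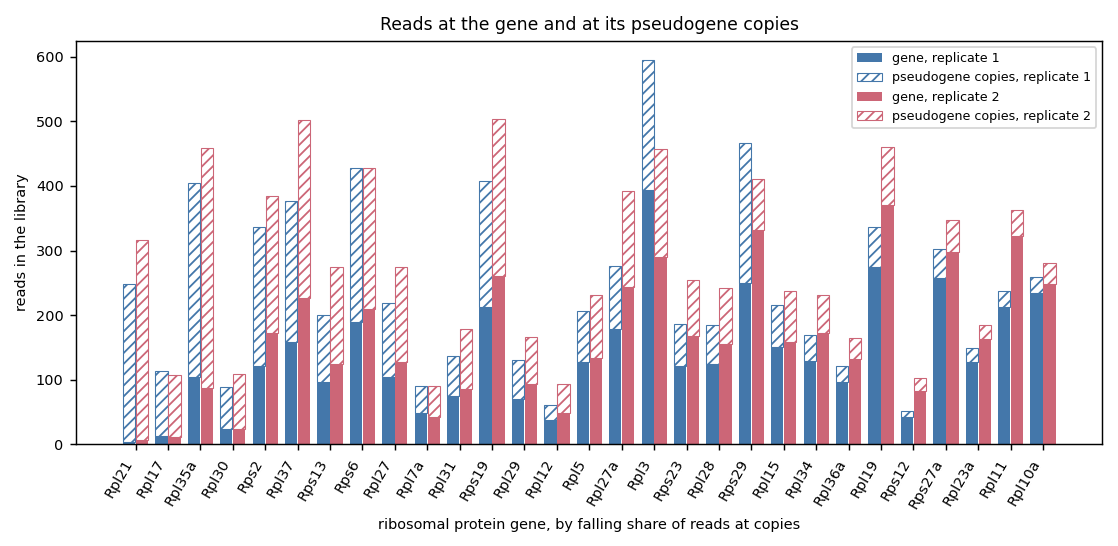
Reads (vertical) at the gene, filled bars, and at its pseudogene copies, hatched on top, in replicate 1 (blue) and replicate 2 (red) for 29 members with over 10% of their reads at copies. At Rpl21, nearly the whole bar is hatched (244 of 248 and 309 of 316 reads), and Rps29 is the member whose hatched part differs most between the libraries.

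Between the libraries, members were mostly higher in replicate 2: 74 of the 80, against 44.8% of all genes tested. The median log2 ratio of replicate 2 over replicate 1, with 1 CPM added to each level, was 0.34 over members and -0.03 over all genes tested. The summed level was 1.25-fold higher. No member was called at 2-fold, against 3.16% of all genes tested (1.45% higher and 1.71% lower in replicate 2). At any size of difference, 29 members had an adjusted p under 0.05, against 6.45% of all genes, and 46 an unadjusted p under 0.05, against 16.9%. Passing depends on a gene's read count, and these shares are not matched for it. Only 989 other genes reached 157 reads, the 10th percentile of member reads. Of these genes 44.7% were higher in replicate 2, and the share of them that passed was not examined. Of the 29, 28 were higher in replicate 2 and Rpl3 was lower. Of all 8135 genes tested, 525 had an adjusted p under 0.05 by Fisher's exact test. Of those 525, 253 were higher in replicate 2, which is 3.11% of the 8135. These tests compare counts of reads in 2 libraries.

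All 32 small subunit genes were higher in replicate 2, 10 of them past the adjusted threshold. Rps12 had 43 and 83 reads and a log2 ratio of 0.91, with a ratio of levels of 1.89 (exact 95% interval 1.29 to 2.79; adjusted p 0.0146). Rps15 had 169 and 266 reads (log2 ratio 0.62, adjusted p 0.000413, exact test) and Rps10 had 92 and 143 (0.60, adjusted p 0.0300, exact test). The others were Rps3a1, Rps7, Rps15a, Rps16, Rps26, Rps28 and Rps29, with log2 ratios from 0.33 (Rps28) to 0.53 (Rps15a). For Rps29 and Rps6 the direction rests on the count at the gene: with copies, Rps6 went from 944 to 924 CPM and Rps29 from 1030 to 885 CPM, and 30 of the 32 were higher.

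Of the P stalk, Rplp1 was 1.68-fold higher (1.43 to 1.97; adjusted p 2.17e-09, exact test) and Rplp2 1.35-fold (1.13 to 1.62; adjusted p 0.0148). Rplp0 was 1.12-fold higher (1.00 to 1.25) and did not pass (adjusted p 0.264).

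In the large subunit 39 genes were higher and 6 lower. Past the adjusted threshold, Rpl41 had a log2 ratio of 0.53 (adjusted p 7.62e-14, exact test) and Rpl38 one of 0.64 (adjusted p 2.19e-07). Rpl36 stood at 0.65, and Rpl39, Rpl11, Rpl18, Rpl24, Rpl32, Rpl9 and Rpl23 between 0.51 and 0.57. Rpl37, Rpl27a, Rpl19, Rpl26 and Rpl13a lay between 0.30 and 0.48. Rpl11 is known for binding 5S ribosomal RNA together with Rpl5. Rpl5 had 128 and 133 reads, a ratio of 1.02 (0.79 to 1.30). Rpl21 and Rpl10 had log2 ratios of 0.71 and 0.68 on few reads and did not pass.

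Rpl3, which helps form the site of peptide bond formation, had 394 and 290 reads (871 and 626 CPM), a ratio of 0.72 (0.62 to 0.84; adjusted p 0.000695, exact test). It was the lowest ratio of the members. The other 5 lower members did not pass: Rpl35a (104 and 87 reads, log2 ratio -0.29; with its copies 404 and 459 reads, higher in replicate 2), Rpl17 (-0.26), Rpl7a (-0.22), Rpl4 (421 and 387 reads, -0.16) and Rpl7l1 (-0.09). Rpl4 and Rpl3 have the longest coding sequences of the members seen.

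The ratio was lower for members with long coding sequences. Across the 80 members, log2 ratio and coding length, from 78 to 1260 bases, had a Spearman rho of -0.42 and a Pearson r of -0.51, given as a description of 1 pair of libraries. With annotated transcript length the rho was weaker, -0.26. The r was -0.21 with log2 of that length, a scale unlike that of the r of -0.51. Among genes whose leading annotated transcript has at most 500 bases, the median log2 ratio was 0.41 over 12 members and 0.41 over 160 other genes. It was 0.35 over 20 members and 0.33 over 271 others from 501 to 750 bases, and 0.27 over 24 and 0.23 over 407 from 751 to 1000. From 1001 to 1500 bases it was 0.28 over 15 members and 0.05 over 982 others, from 1501 to 2500 bases 0.32 over 6 and -0.18 over 2205, and above that 0.36 over 3 and -0.12 over 3737. The members' medians thus fell no further past 1000 bases, while those of other genes did. The bins above 1500 bases hold only 6 and 3 members. Their lengths are those of annotated models, not of reads: for Rps15a the model has 5179 bases, 393 of them coding. Spike-in RNAs, of the same named mixes in both libraries, also differed by length. Those up to 600 bases had 1697 and 5586 reads and those over 900 bases 3674 and 9751, so that short over long was 1.24-fold higher in replicate 2 (1.16 to 1.33), a log2 ratio of 0.31. The part of read length in the members' difference was not tested, and neither was that of the pancreas and liver RNA. With pancreas, liver and mitochondrial genome genes and the ribosomal RNA locus left out of the totals, the members' median was 0.36.

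**Figure D3:**
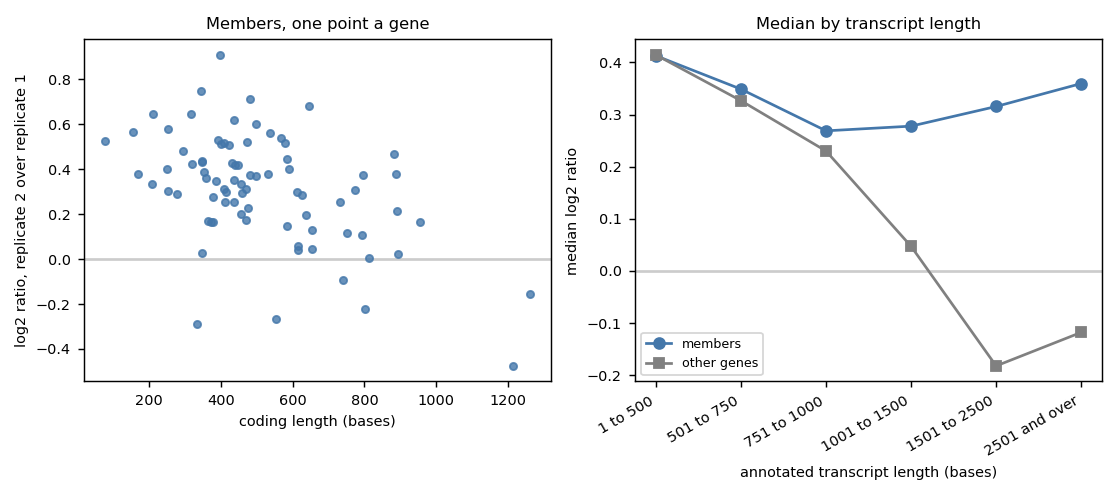
Left, log2 ratio of replicate 2 over replicate 1 (vertical) against coding length in bases for 80 members, one point a gene, lower towards long coding sequences. Right, median log2 ratio of members (blue circles) and other genes (grey squares) by annotated transcript length; both are 0.41 up to 500 bases, and from 1001 bases on the members lie above the others.

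Other genes of the translation system differed from set to set in the same comparison. Of 4 genes for ribosomal proteins under other kinds of symbol, 3 were higher in replicate 2 (median log2 ratio 0.27). By Fisher's exact test 2 of the 4 had an adjusted p under 0.05, against 6.45% of all genes tested. Among the 4, Fau had 190 and 265 reads (log2 ratio 0.45, adjusted p 0.0233, exact test). Rpl36al, with 234 and 257 reads (0.10), and Rack1, with 107 and 93 (-0.24), did not pass (adjusted p 0.819 and 0.665, exact test). Fau and the member Rps27a encode a ribosomal protein fused to a ubiquitin-like protein and to ubiquitin. Rps27a had 258 and 298 reads (0.17, adjusted p 0.545). Of 6 elongation factors tested, 3 were higher (median 0.03). Of 29 initiation factors, 9 were higher (median -0.13). Of 63 ribosome biogenesis genes, 10 were higher, against 44.8% of all genes tested, and 53 lower (median -0.46). Of the 63, 2 were called, a share near the 3.16% of all genes. Mitochondrial ribosomal proteins were higher in 49 of 78 (median 0.17). Outside the translation system, nuclear genes of oxidative phosphorylation were higher in 71 of 84 (median 0.46), with 3 called, also near that share. At any size of difference, 44 of the 84 had an adjusted p under 0.05 by Fisher's exact test, against 29 of the 80 members. Among the 78 mitochondrial ribosomal protein genes 4 did. These counts also depend on how many reads each gene had, and were not matched for it. The lists differ in length, with a median transcript of 763 bases for oxidative phosphorylation and 2499 for biogenesis, against 814.5 for members.

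Paralogs, second genes for a like or related protein, had separate counts in these data. Whether single reads were placed at the right gene of a pair was not tested. Coding sequences of the pairs matched in from 53.0% (Rpl7 and Rpl7l1) to 87.9% (Rpl36a and Rpl36al) of aligned bases. Rps27 and Rps27l, the latter known as a target of p53, have coding sequences of 255 bases with 61 differing bases. The stop codons differ, and of the 53 other codons that differ, 50 encode the same amino acid. Both are shown, since they differ at many bases and encode nearly the same protein, with differing bases in capitals. Rps27 lies on chromosome 3, minus strand, and Rps27l on chromosome 9, plus strand.
Rps27: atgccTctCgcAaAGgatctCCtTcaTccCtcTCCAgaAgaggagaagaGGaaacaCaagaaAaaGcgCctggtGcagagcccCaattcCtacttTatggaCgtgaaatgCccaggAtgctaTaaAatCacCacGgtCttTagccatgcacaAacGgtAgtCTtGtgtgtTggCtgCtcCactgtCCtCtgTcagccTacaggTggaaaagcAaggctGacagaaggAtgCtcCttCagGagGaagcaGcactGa
Rps27l: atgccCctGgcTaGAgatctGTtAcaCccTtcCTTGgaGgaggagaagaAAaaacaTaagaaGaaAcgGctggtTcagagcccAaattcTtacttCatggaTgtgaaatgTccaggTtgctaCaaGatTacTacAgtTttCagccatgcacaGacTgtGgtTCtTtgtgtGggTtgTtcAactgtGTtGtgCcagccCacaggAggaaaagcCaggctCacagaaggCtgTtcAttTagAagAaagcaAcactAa
Rps27 had 253 and 320 reads and Rps27l 85 and 130. Rps27l thus made up 25.1% (20.8 to 30.03) and 28.9% (24.9 to 33.2) of the pair, lower than Rps27 in both libraries.

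Rpl22 had 89 and 116 reads and Rpl22l1, whose level is known to be held down by Rpl22 protein in some cells, 79 and 91. Rpl22l1 was 47.0% (39.6 to 54.6) and 44.0% (37.4 to 50.8) of the pair, and the interval of each library includes equal levels. Rpl7l1, a relative of Rpl7, was 25.8% (20.1 to 32.4) and 24.5% (18.9 to 31.0) of its pair, with Rpl7 at 141 and 145 reads. Of Rpl36a and Rpl36al, which match in 87.9% of their coding bases, Rpl36al had the larger part, 70.9% (65.8 to 75.5) and 66.1% (61.2 to 70.6).

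Rps4x, carried on the X chromosome, had 203 and 224 reads. Rps4l and Rps3a2, annotated as processed pseudogenes and so not members, had 12 and 12 and 14 and 22 reads.

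The 3 paralogs known for tissues other than adrenal had no read. Rpl3l, known from heart and skeletal muscle, was at 0, which allows up to 0.761% and 1.03% of its pair with Rpl3. Rpl39l, known from testis, was at 0 beside 195 and 296 reads of Rpl39, which allows 1.54% and 1.01%. Rpl10l, also known from testis, was at 0 beside only 12 and 20 reads of Rpl10, which allows 25% and 15%.

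Members differed in how many splice forms they used. Full-length reads, those of the Known, NIC and NNC classes, follow an annotated transcript (Known), combine annotated splice sites in an unannotated way (NIC) or use an unannotated site (NNC). In 72 members, each library held 50 or more full-length reads. Their leading form held a median of 95.6% ± 0.40 (SD, n = 2) of full-length reads, against 94.8% ± 0.10 in 1249 other genes. It held over 95% in both libraries in 36 of the 72. In Rps29 it held 99.6% and 100%, in Rps3a1 99.5% and 100% and in Rplp0 99.1% and 99.8%. No member's leading form changed its share between the libraries by Fisher's exact test with an adjusted p under 0.05 and 10 percentage points, against 0.245% of 1226 genes tested, and 5 had an unadjusted p under 0.05, against 6.28% of those 1226. With at least 5 reads in each library, 39 members had 1 full-length form, 31 had 2, 5 had 3 and 3 had 4.

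The leading form was under 80% in both libraries in 8 members, 11.1% of the 72, against 17.6% of all 1321 genes measured. In Rpl38, Rpl31, Rpl35a and Rps19, the forms differ in their first exon. Rpl38-204 had 57.5% and 58.9% and Rpl38-201, whose first exon ends further downstream, 36.7% and 31.5%. Rps19-203, which starts at position 24884371 of chromosome 7, had 75.8% and 75.2%, and Rps19-202, which starts at 24884714, had 12.8% and 13.8%. Rpl35a-205 had 57.3% and 70.6% of 103 and 85 full-length reads, with 3 other forms seen at 5 or more reads in each library. Rpl31-201 had 55.6% and 50% of 72 and 84 reads, and Rpl31-202 18.1% and 28.6%. These shares count reads at the gene only. Of reads at gene and pseudogene copies together, copies held 74.3% and 81.0% for Rpl35a and 45.3% and 51.7% for Rpl31. They held 47.8% and 48.3% for Rps19, and 7.69% and 4.95% for Rpl38. Which splice form, if any, the reads at copies belong to was not tested, so these shares are uncertain.

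**Figure D4:**
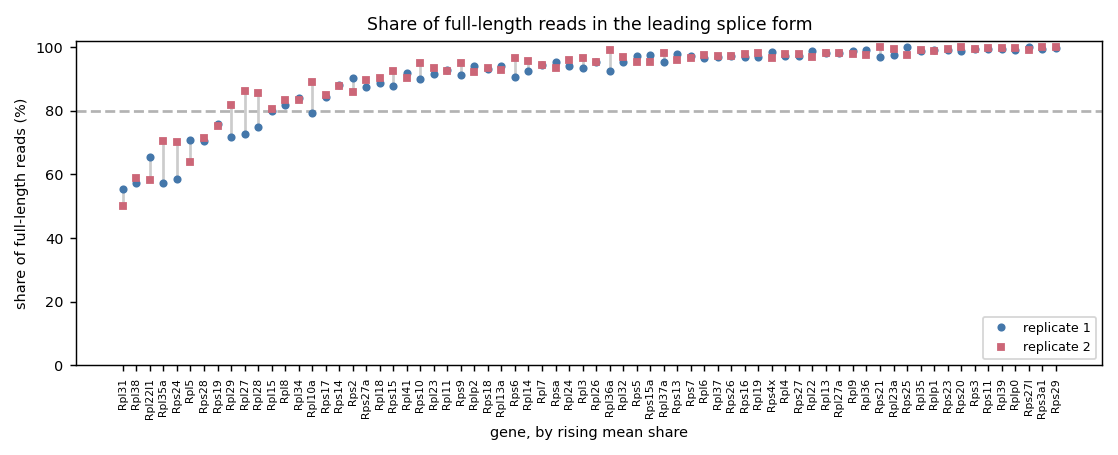
Share of full-length reads in the leading splice form (vertical, percent) for 70 members whose full-length reads reach 50 in both libraries, by rising mean share, with a circle for replicate 1, a square for replicate 2 and a dashed line at 80%. Of the members, 8 have both symbols under the line, and 34 have both above 95%.

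In Rpl22l1 and Rps28 the 2 main forms differ by a few bases at a splice site, and the junctions are shown for that reason, with the extra bases in capitals. In Rpl22l1 the lines run from position 28805532 to 28806514 of chromosome 3, plus strand, over the junction of exon 1 with exon 2, which starts 3 bases later in Rpl22l1-206.
Rpl22l1-201: aacatggcgccgCAGaaagacaagaag
Rpl22l1-206: aacatggcgccgaaagacaagaag
The 3 bases lie in the coding sequence, which is 369 bases with them and 366 without. Rpl22l1-206, without them, led with 51 of 78 and 53 of 91 full-length reads (65.4% and 58.2%), and Rpl22l1-201 had 18 and 31 (23.1% and 34.1%). In Rps28, on the minus strand of chromosome 17, the 4 extra bases end exon 3, after the stop codon, so both forms have the same coding sequence of 210 bases.
Rps28-205: atcttgcagctgGTGGggttctggatat
Rps28-201: atcttgcagctgggttctggatat
Rps28-205, with the 4 bases, held 248 of 351 and 323 of 452 full-length reads (70.7% and 71.5%), and Rps28-201 held 28.5% and 27.9%. The 2 libraries differed by less than 1 point in this choice.

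Rps24, a small subunit gene known for splice forms that differ in the last codons, was the only member led by an unannotated form. Its leading form, an NNC transcript of 6 exons, had 38 of 65 and 71 of 101 full-length reads (58.5% and 70.3%). Between the fourth and the last exon it holds an exon of 36 bases at chr14:24494052-24494087, plus strand. An exon of 18 bases with the same start, ending at 24494069, and an exon of 20 bases at chr14:24495430-24495449 are annotated in this interval. The lines show the 18 bases shared by both, the 18 further bases in capitals with the next 6 intron bases in lower case, and the 20-base exon in the same way, to show where each exon ends.
shared 18 bases: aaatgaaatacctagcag
further 18 bases: GTACTGCCATTGGGCACGgtgtgg
20-base exon: TGAGTGGAGATTGGATACAGgtatag
Of reads holding the end of the fourth exon, the 36-base exon followed in 50 of 80 in replicate 1 (62.5%, 51.5 to 72.3) and in 85 of 120 in replicate 2 (70.8%, 62.2 to 78.2). The 18-base exon followed in 3 and 7 reads (3.75% and 5.83%). The fourth exon was joined directly to the last in 13 and 22 reads (16.2% and 18.3%), and 11 and 6 reads went on into the intron. The 20-base exon had 0 of 80 and 0 of 120 reads. In the reference sequence the 36-base and the 18-base exon give the same stop codon, TGA, after 131 codons, while the direct join gives TAG after 133 and the 20-base exon TGA after 130.

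**Figure D5:**
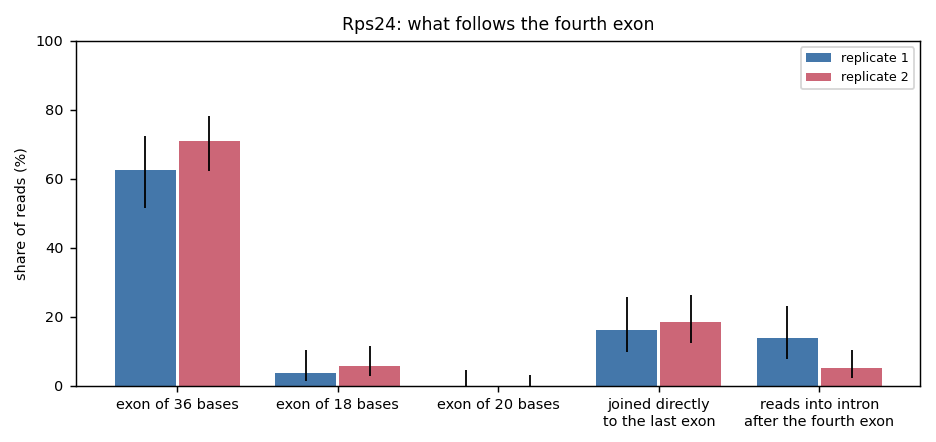
Share of Rps24 reads (vertical, percent) by what follows the fourth exon, in replicate 1 (blue, 80 reads) and replicate 2 (red, 120 reads), with Wilson 95% intervals. The 36-base exon leads in both libraries with 62.5% and 70.8%, and the 20-base exon is at 0 in both.

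Rpl7l1 also had a frequent unannotated form, with 15 and 14 reads beside 24 and 28 of Rpl7l1-201. It uses an unannotated splice site close to the annotated one. Other unannotated forms were rarer: Rps19 had a NIC form with 13 and 8 reads, Rplp2 an NNC form with 9 and 9, Rps14 a NIC form with 9 and 5 and Rpl13 an NNC form with 5 and 6. In Rpl5, which has a copy of identical coding sequence, the leading form was not coding. Rpl5-204, annotated as a retained intron transcript of 3 exons on chromosome 5, had 88 and 81 reads (71.0% and 63.8%). The coding Rpl5-201 had 33 and 42 reads, and the copy Gm15500, without introns, had 79 and 98.

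Over all members, Known reads were 89.3% and 89.4%, against 79.4% and 78.4% in other genes tested. Genomic reads, which overlap a gene without its splicing, were 0.485% and 0.495%, against 5.01% and 6.09%. NIC reads were 119 and 94, or 0.731% and 0.452%, and NNC reads 1.04% and 0.971%. These class differences from other genes were not tested. Between the libraries, the NIC share of members was lower in replicate 2 (adjusted p 0.00255, Fisher's exact test). The other classes did not pass (adjusted p from 0.881 to 0.940, Fisher's exact test). Members with the highest share of Genomic reads were Rps15 (17 and 30 reads, 10.1% and 11.3%) and Rps27a (17 and 16 reads, 6.59% and 5.37%), then Rpl15 (6 and 9 reads). Rpl10 (0 and 3 reads) and Rpl12 (1 and 1 read) also ranked high, on few reads.

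Incomplete splice matches (ISM), reads that follow part of an annotated transcript, were 8.42% and 8.65% of all member reads summed. Per gene, the median over the members seen was 2.29% and 2.96%. Rps21 (34 and 40 reads, 34.3% and 29.9%) and Rpl39 (35 and 64 reads, 17.9% and 21.6%) were among the members with high shares. Rpl10 (2 and 6 reads) and Rpl17 (3 and 2 reads) also had high shares, on few reads.

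Members also share a place in the genome with small RNAs. Of the 83, 30 (36.1%) hold at least 1 annotated snoRNA gene within their span on the same strand, 58 snoRNA genes in all, against 1.27% of all 22028 protein-coding genes. snoRNAs guide the modification of ribosomal RNA and are known to be cut from introns of such hosts. Rpl4 held 5, and Rpl13a held 4. The members lie on 19 chromosomes, 14 of them on chromosome 7.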

How the data were processed

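The 2 long-read libraries of adrenal gland from 36-day-old mice formed 1 group. Per the file headers, the authors assigned reads to transcript models of GENCODE M21 on mm10 and deposited raw read counts per model, with TALON class names; the aligner is not given in the sources used here. Models with 0 reads are not listed. Counts were summed per gene over all classes and scaled to CPM over endogenous reads, with positions from the M21 annotation. Genes with at least 10 reads were compared by two-sided Fisher's exact test with Benjamini-Hochberg adjustment over 8135 genes, a comparison of libraries, not conditions, that was also tested on simulated data. Shares carry Wilson and ratios exact conditional 95% intervals; a count of 0 allows 3 counts. Amplified reads are not independent molecules, and whether the libraries came from separate animals is not certain.

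Pseudogene transcripts were aligned to coding sequences with BLAST 2.17.0. Promoters came from RefSeq. Python 3.11.15 with scipy 1.17.1, R 4.3.3 with edgeR 4.0.16 and DESeq2 1.42.0 (scalings only, as alternatives) were used. Named genes are the 15 most and 8 least abundant members, those with adjusted p under 0.05, the 5 highest and 5 lowest ratios, paralogs, members with a leading form under 80% or an unannotated one, the 6 with the most unannotated-form reads, the 5 with the highest Genomic and ISM shares and members at 0. The well-read copies were named after their values were seen. Members, lists and rules were chosen with earlier results of these data known. Some genes these rules name are not reported here.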

Additional observations from a re-analysis of the deposited data

How the results depend on the processing

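No paired analysis was possible because the study has 1 group, whose replicate numbers pair no samples. Of 63 alternative values over 11 results, 52 stayed near the reported value, 11 moved and 0 turned direction. The 52 include values with a replicate left out for the summed level, the Known share and the median leading share. Those could not count as moved, since each of 2 libraries lies within 1 SD of their mean. No member was called under any alternative run (other scalings, classes, read minimums, added CPM or totals, and copies added). The members with an adjusted p under 0.05 by Fisher's exact test numbered 22 to 32 over those run on that count, against 29. The median log2 ratio moved from 0.34 to 0.39 both with full-length classes only and without Genomic and Antisense reads; with TMM it was 0.37, with all genes at 0.00. Adding reads at copies, an alternative chosen after seeing the data, moved the summed level from 40453 to 48414 CPM and the ratio of the 90th to the 10th percentile of levels from 9.31 to 4.97 in the large and from 2.79 to 3.92 in the small subunit. The median share of the leading form moved from 95.6% to 94.8% with at least 20 full-length reads (77 members) and to 96.7% with the Known class only (71 members). Members led by a form under 80% fell from 8 to 4 with at least 100 full-length reads, where 59 members were left. Leaving out a replicate gave 35994 to 44913 CPM for the summed level, 9.91 to 10.01 and 2.78 to 3.01 for those percentile ratios, 89.3% to 89.4% for the Known share, 95.3% to 95.9% for the leading share and 8 to 12 members under 80%. With 2.21 and 2.16 CPM a read, depth limits what can be said of members with few reads, such as Rpl10 and Rpl21.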
